A study of Mus musculus with 6 samples.

Results

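Pancreatic islets whose beta cells lack Rictor were compared with wildtype islets by ATAC-seq, an assay that marks open DNA by letting the Tn5 transposase cut it and attach adapters, after both had received the same GFP adenovirus. The comparison rests on 4 of the 6 libraries of the series, 2 per group. The control group (Con+Ad-GFP in the labels, genotype wildtype) and the knockout group (βRicKO+Ad-GFP, genotype BetaRicKO) were islets of 16-week-old mice, kept with the virus outside the body for 48 h. The other group, knockout islets given an Acsl4 adenovirus (βRicKO+Ad-Acsl4), had no part in choosing the regions. Its lists enter below where open regions of the first groups were looked up in them. They also enter in peaks at some named genes and in the merged count of all 6 libraries. The driver of the deletion was not named in the sources used here, whole islets hold other cell types besides beta cells, and no label tells if the mice behind a group's libraries were separate. Peaks of the 4 lists that overlapped by at least 1 bp were merged into 7774 regions, and a region was taken when both lists of a group held it and neither list of the other group did. This gave 259 regions, of 13633 in the merged lists of all 6 libraries. Of these, 234 were knockout-only (3.01% of the 7774) and 25 were control-only (0.322%).

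Rictor is the subunit that defines mTORC2, a kinase complex that phosphorylates AKT downstream of the insulin receptor and thereby holds FOXO transcription factors out of the nucleus. In beta cells this pathway is known for its part in cell mass, insulin content and insulin release. The title of the series concerns loss of beta cell identity when Acsl4, an enzyme that joins long-chain fatty acids to coenzyme A, is raised in cells without mTORC2. The comparison described here is the step before that, knockout against wildtype islets without the Acsl4 virus.

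The 4 lists differed among themselves more than the groups did. The libraries labelled control-GFP 1 and 2 had 4442 and 1628 peaks, and those labelled knockout-GFP 1 and 2 had 2206 and 4257. The group means were 3035 ± 1990 and 3232 ± 1450 peaks (SD, n = 2 each; two-sided exact permutation p = 1, smallest possible p 0.333), and such a p measures only the spread between these samples, which can be technical. The list labelled control-GFP 2 stood apart: 22.2% of its peaks lay at a gene start (95% exact interval 20.2 to 24.3), meaning within 1000 bp of the start of a protein-coding gene, against 76.3%, 71.5% and 81.3% in the other control list and the first and second knockout lists. Of 10 beta cell markers, Nkx6-1 and Mafa had a peak at their starts in the lists labelled control-GFP 1 and knockout-GFP 2, and the remaining GFP lists had none at any marker. Ins1 and Ins2, which define the beta cell, had no such peak in any list, and the markers of alpha and delta, acinar, endothelial, stromal and immune cells were at 0 in all 4. A single ductal marker of 2 was marked, in the library labelled knockout-GFP 2. In whole islets, a change in the cells present and a change in openness per cell cannot be told apart. A pattern built on 2 lists per group allows no test per region, so the counts below are descriptions.

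The targeted gene gave no check of the labels, and the peaks in Acsl4 did not follow them. Rictor (chromosome 15, 6708349 to 6800401) held 0 peaks in every library, wildtype included. Acsl4 (chromosome X, 142317993 to 142390802) held 7 peaks in the list labelled control-GFP 1, of which 1 lay near an end of the gene, and 6 in the list labelled knockout-GFP 1, and 0 in either list labelled knockout-Acsl4. The strongest of them scored 50.3 and 91.2 in these GFP lists. Foxo1 had 1 weak peak, of score 2.40, in the list labelled control-GFP 2. Where the Acsl4 peaks came from was not tested, and all directions below follow the labels as deposited.

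Promoters of genes that lead each set are printed here as examples of their sequence. The windows below run from 250 bases before to 50 after the annotated start, on the gene's strand, from RefSeq (GRCm38.p6). They are the strongest gene-start regions of each set whose window overlapped the open region, some only in part. Capitals mark the letters of 10 searched motifs. The knockout-only set is shown by Phf12 (chr11:77982566-77982865, plus strand), Selenoi (chr5:30232331-30232630, plus), Ubn2 (chr6:38433675-38433974, plus) and Zyg11b (chr4:108301041-108301340, minus).
Phf12: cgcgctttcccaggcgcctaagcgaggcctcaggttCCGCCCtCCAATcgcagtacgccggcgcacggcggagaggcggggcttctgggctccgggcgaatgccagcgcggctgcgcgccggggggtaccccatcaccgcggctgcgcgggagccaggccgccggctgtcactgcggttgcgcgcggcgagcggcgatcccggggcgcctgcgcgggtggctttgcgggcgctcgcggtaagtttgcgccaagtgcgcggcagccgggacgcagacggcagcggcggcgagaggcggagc
Selenoi: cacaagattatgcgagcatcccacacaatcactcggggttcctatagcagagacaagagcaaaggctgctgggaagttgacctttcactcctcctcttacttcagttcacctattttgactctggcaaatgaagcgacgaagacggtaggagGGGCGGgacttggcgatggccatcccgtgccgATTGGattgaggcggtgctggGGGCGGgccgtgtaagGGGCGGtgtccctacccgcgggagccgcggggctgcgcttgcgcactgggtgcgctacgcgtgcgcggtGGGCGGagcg
Ubn2: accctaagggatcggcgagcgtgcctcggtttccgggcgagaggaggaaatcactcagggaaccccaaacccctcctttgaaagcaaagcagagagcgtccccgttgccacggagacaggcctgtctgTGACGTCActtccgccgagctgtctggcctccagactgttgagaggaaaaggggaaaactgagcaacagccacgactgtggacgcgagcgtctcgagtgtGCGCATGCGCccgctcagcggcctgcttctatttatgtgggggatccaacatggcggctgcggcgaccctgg
Zyg11b: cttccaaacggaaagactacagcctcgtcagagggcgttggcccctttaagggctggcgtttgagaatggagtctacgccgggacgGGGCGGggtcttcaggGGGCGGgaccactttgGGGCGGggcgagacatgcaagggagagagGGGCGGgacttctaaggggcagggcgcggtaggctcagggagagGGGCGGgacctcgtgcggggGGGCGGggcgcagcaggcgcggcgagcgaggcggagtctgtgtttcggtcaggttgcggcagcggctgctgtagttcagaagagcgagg
The control-only set is shown by Zyx (chr6:42349578-42349877, plus), Gopc (chr10:52382075-52382374, minus) and Riox2 (chr16:59471525-59471824, plus).
Zyx: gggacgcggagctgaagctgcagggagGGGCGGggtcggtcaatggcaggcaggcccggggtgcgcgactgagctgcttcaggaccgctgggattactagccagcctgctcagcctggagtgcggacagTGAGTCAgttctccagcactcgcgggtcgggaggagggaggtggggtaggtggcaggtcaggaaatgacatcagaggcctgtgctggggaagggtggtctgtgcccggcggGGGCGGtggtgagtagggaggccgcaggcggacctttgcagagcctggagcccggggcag
Gopc: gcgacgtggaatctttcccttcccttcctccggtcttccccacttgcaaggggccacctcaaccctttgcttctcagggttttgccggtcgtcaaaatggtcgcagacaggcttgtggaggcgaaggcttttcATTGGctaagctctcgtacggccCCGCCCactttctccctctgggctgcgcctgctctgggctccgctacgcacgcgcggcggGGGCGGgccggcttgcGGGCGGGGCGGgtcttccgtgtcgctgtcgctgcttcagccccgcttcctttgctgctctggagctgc
Riox2: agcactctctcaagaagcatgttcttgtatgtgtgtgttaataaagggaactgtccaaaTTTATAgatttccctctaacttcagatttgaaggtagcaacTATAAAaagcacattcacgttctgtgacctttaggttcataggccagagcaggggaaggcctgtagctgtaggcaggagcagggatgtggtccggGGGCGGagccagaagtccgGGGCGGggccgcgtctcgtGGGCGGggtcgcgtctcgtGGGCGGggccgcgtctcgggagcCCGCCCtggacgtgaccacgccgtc
The windows were rich in CpG, with 50 CpG in that of Phf12 and 18 in that of Zyx, the highest and lowest of these 7. The Ubn2 window holds a full CRE (TGACGTCA) and, as its second run of capitals, a full NRF1 motif. The Zyg11b window holds 6 copies of the SP1 motif, and the Riox2 window 5 copies of it. The Riox2 window also holds 2 matches to the TATA box letters, both upstream of its open region.

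Of the 259 regions, 216 lay at gene starts. The knockout-only set had 200 there (4.10% of 4884 gene-start regions), 16 inside gene bodies and 18 between genes. The control-only set had 16 at gene starts (0.328%), 3 in gene bodies and 6 between genes. Away from gene starts, called distal below, the 34 and 9 regions made up 1.18% and 0.311% of 2890. The excess of knockout-only over control-only regions was thus present in both places. It was not particular to the genotype split, however. The same 4 lists can be split in only 2 other ways, and each also gave unequal counts, always fewer for the pair with the library labelled control-GFP 2. Pairing control-GFP 1 with knockout-GFP 1 gave 160 regions against 21, and pairing control-GFP 1 with knockout-GFP 2 gave 1242 against 8. The knockout-only count of the genotype split, 234, lay between the larger counts of the other splits, and its control-only count, 25, was above both of their smaller counts.

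With each list shortened to its best 1628 peaks by score, the merged regions numbered 4196. Of these 209 were knockout-only (4.98%) and 34 control-only (0.81%), with 180 and 27 at gene starts and 29 and 7 distal. The other splits gave 141 against 18 and 267 against 28, so 209 again lay between the larger counts and 34 was again above both smaller ones. The ratio of the larger to the smaller count was 6.15 for the genotype split, below the 7.83 and 9.54 of the other splits. Shortening moved different peaks into the pattern. Of the 209 regions, 65 were knockout-only in the lists as deposited too, while the remaining 144 had a peak in the full list labelled control-GFP 1. Of the 34 control-only regions, 5 were control-only in both versions. Of the others, 29 had a peak in the full list labelled knockout-GFP 2 and 6 in that labelled knockout-GFP 1. The region of highest mean percentile among those that entered only through shortening lay between genes (chromosome 13, 3373998 to 3374295; scores 17.4 and 15.96 in the libraries labelled knockout-GFP 1 and 2). At gene starts the highest were those of the neighbours Chtf18 and Rpusd1 (8.83 and 21.8) and, in the other direction, of Sypl (24.4 and 5.18 in those labelled control-GFP 1 and 2). The score needed to stay in was 7.48, 1.302, 3.04 and 7.62 in the lists labelled control-GFP 1, control-GFP 2, knockout-GFP 1 and knockout-GFP 2. Shortening only removes peaks, so a region or gene with the pattern in the full lists kept it when its own scores passed these values. Being kept, where given below, therefore restates the scores and is no separate support.

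**Figure D1:**
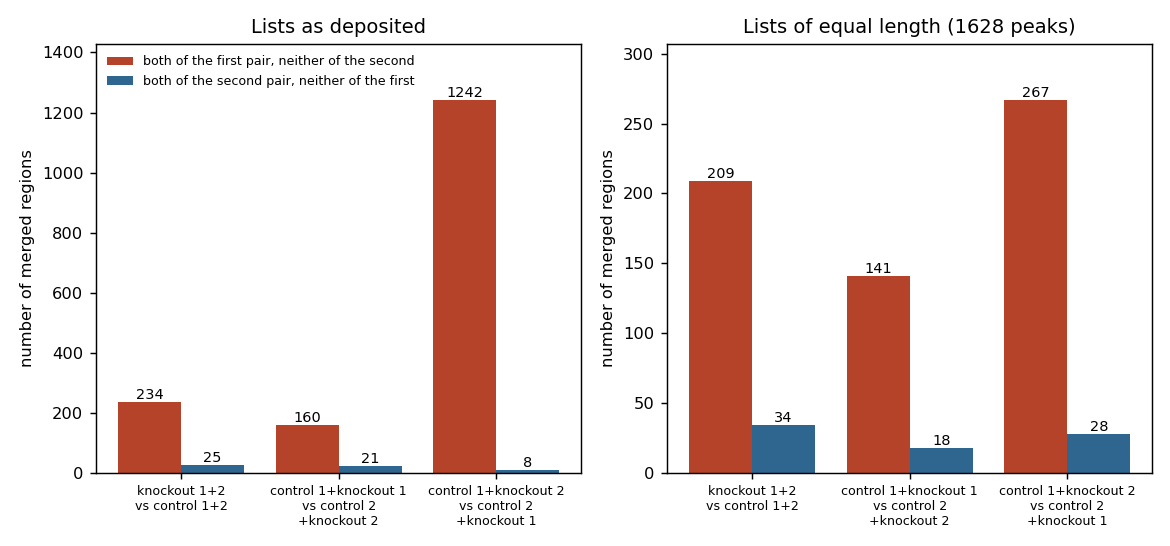
Number of merged regions (vertical axis) held by both lists of a pair and neither of the other, for the 3 ways of splitting the 4 GFP lists, as deposited (left) and with 1628 peaks each (right). The larger bar of the genotype split (234 and 209) stands between those of the other splits in both panels, its smaller bar (25 and 34) is the highest of the 3, and the smaller bar belongs each time to the pair with control-GFP 2.

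The highest knockout-only regions of all were distal and are described further on. At gene starts, the 15 highest are given here by what their genes do. The score of a peak (a −log10 q-value from the authors' caller, by its range) ranks peaks within a list, and its percentile was averaged over both knockout lists. The highest at a gene start was that of the predicted gene Gm32584 (chromosome 5, 36661020 to 36661357), with scores of 22.2 and 24.6 in the libraries labelled knockout-GFP 1 and 2 and a mean percentile of 96.4. Next came a region shared by Maf1, the repressor of RNA polymerase III, and Sharpin, of the linear ubiquitin ligase (chromosome 15, 76351098 to 76351520; 8.86 and 13.9). Both libraries placed these regions among the best of their lists, at percentiles of 88.35 or more.

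Chromatin regulators and DNA enzymes were among the next. Phf12, a subunit of a Sin3 corepressor complex (chromosome 11, 77982326 to 77982655), scored 13.8 and 10.7. Ubn2, of the HIRA complex that deposits a histone H3 variant (chromosome 6, 38433676 to 38434124), scored 8.30 and 10.5. Top1, which relaxes supercoiled DNA, scored 8.66 and 8.84. These 3 stayed knockout-only in lists of equal length. So did Tcf3, a helix-loop-helix factor (6.45 and 9.66), and Gpatch8, a nuclear G-patch protein (8.05 and 8.70).

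Signalling and lipid enzymes formed another part. Csnk2b, the regulatory subunit of casein kinase (chromosome 17, 35121328 to 35121504), scored 9.34 and 9.04. Ptp4a2, a phosphatase of the PRL family (chromosome 4, 129819939 to 129820147), scored 10.5 and 10.7. Selenoi, the ethanolamine phosphotransferase of phospholipid synthesis (chromosome 5, 30232371 to 30232698), scored 7.01 and 13.2. By rank within the lists these stood at percentiles of 89.8 and 71.1, 92.0 and 78.8, and 79.7 and 87.3 in turn, so only Selenoi ranked higher in the second list. Ippk, a kinase that makes the most phosphorylated inositol phosphate, scored 6.27 and 9.80. Tbc1d17, a Rab GTPase-activating protein, scored 12.3 and 7.79.

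Protein folding and ubiquitin genes completed the 15 highest gene-start regions. Hsp90aa1, the inducible cytosolic chaperone (chromosome 12, 110696333 to 110696634), scored 11.5 and 8.47. Zyg11b, a receptor of a cullin ubiquitin ligase (chromosome 4, 108301084 to 108301290), scored 6.81 and 11.8. Mindy2, which trims ubiquitin chains, scored 6.85 and 8.94. All 15 regions were kept at equal list length, since their scores passed the values needed to stay in. Farther down, Ddx41 (9.03 and 7.39), Wdr20 (8.68 and 7.33) and Wdr18 (15.1 and 6.29) were not kept. Hsdl2, Cenpf, Anp32e, Dhx8, Tmem170b, Rtn3 and Mmaa were.

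**Figure D2:**
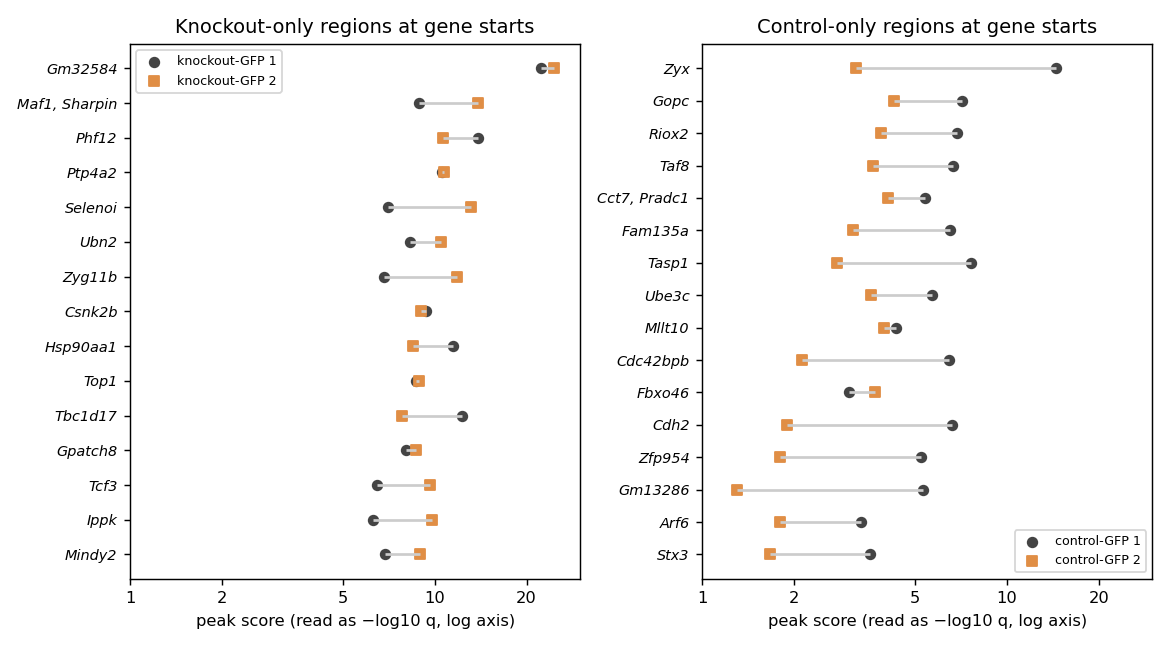
Peak scores (horizontal log axis) of the 15 highest knockout-only regions at gene starts (left) and of all 16 control-only ones (right), with a circle for replicate 1 and a square for replicate 2 of the group and a grey line joining them. Both knockout scores of the genes on the left lie above 6, and the control-GFP 2 scores on the right, in a list with a median of 2.77, lie at or below 4.25.

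By gene rather than by region, a gene counted as marked where any peak lay at its start, so its libraries could hold different peaks. In this count 231 genes were knockout-only (1.06% of 21883 protein-coding genes) and 23 control-only (0.105%). At equal list length the counts were 212 (0.969%) and 37 (0.169%), and 56 and 5 genes had the pattern in both versions. The shares depend on how many genes a group could mark. Of 1482 genes marked in both knockout lists, 231 were in neither control list (15.6%, 95% exact interval 13.8 to 17.5). Of 353 marked in both control lists, 23 were in neither knockout list (6.52%, 4.18 to 9.62).

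Genes of the pathway named by the deletion, and of the processes in the study's title, gave 3 knockout-only genes and 0 control-only ones. The list of mTORC2, insulin signalling and FOXO genes had 32 members. Of these, 4 were marked in both knockout lists and 1 was knockout-only, Pik3cb, a catalytic subunit of phosphoinositide kinase (4.21 and 8.54, on chromosome 9). Pik3cb kept the pattern at equal list length. None of the 24 FOXO targets, the 30 antioxidant genes, the 24 beta cell identity genes or the 14 dedifferentiation and disallowed genes was knockout-only or control-only in the lists as deposited. At equal list length Sod2, on both the FOXO target and the antioxidant list, and the antioxidant gene Gpx4 were knockout-only. No member of the identity and dedifferentiation lists was marked in both knockout lists, so neither list could give a knockout-only gene. On the FOXO target and antioxidant lists only 3 genes each were marked in both. The FOXO target, antioxidant, identity and dedifferentiation lists had 0 genes marked in both control lists, so none could give a control-only gene. Among 38 genes of fatty acid and phospholipid metabolism, Selenoi and Acsl3, a relative of Acsl4 (1.97 and 4.0), were knockout-only, and Acsl3 was lost at equal list length. The 27 genes of the unfolded protein response were marked often, with 24, 3, 12 and 24 in the libraries labelled control-GFP 1, control-GFP 2, knockout-GFP 1 and knockout-GFP 2. Of the 12 marked in both knockout lists, 0 lacked a control peak. The share over all genes marked in both knockout lists was 15.6%, and the 12 were not tested against it.

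Genes of growth control and protein synthesis gave a few members each. Of 37 genes of mTORC1, nutrient sensing and RNA polymerase III, 2 of the 5 marked in both knockout lists were knockout-only, Maf1 and the S6 kinase Rps6kb1 (5.08 and 3.79). Of 51 translation initiation genes, 3 of 12 were, led by Eif4ebp2, an inhibitor of cap-dependent translation that mTORC1 phosphorylates (4.61 and 11.4), with Eif4g1 (3.52 and 4.53) and Eif3d (3.58 and 2.97). Of 21 aminoacyl-tRNA synthetases, 2 of 3 were, Eprs (7.65 and 5.23) and Yars2 (6.65 and 3.14). The 95 cytosolic ribosomal protein genes gave 1 of 8, Rplp0 (2.35 and 5.44). Of all these, Maf1 and Eif4ebp2 kept the pattern at equal list length.

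Nuclear and RNA-processing lists gave members as well. Among 160 splicing genes, 6 of the 33 marked in both knockout lists were knockout-only, led by the helicases Ddx41 and Dhx8, the splicing subunit Sf3b2 and the spliceosome-associated ligase Prpf19. Scores of the strongest kept at equal length, Dhx8, were 5.82 and 9.09. Among 87 histone chaperone and chromatin genes, 3 of 15 were (Phf12, Ubn2 and Kat7), and among 99 genes of RNA polymerase II and its general factors 2 of 12 (Gtf2h5 and Ccnt1). The 465 zinc finger genes gave 2 of 21, Zbtb21 and Zbtb37. The 32 basic leucine zipper and circadian genes gave 1 of 6, Atf5 (2.33 and 2.07). None of these lists but the zinc finger genes and the polymerase list had a control-only gene, Zfp954 in the former and Taf8 in the latter.

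In protein turnover, 11 of the 50 ubiquitin pathway genes marked in both knockout lists were knockout-only, of 411 in the list. Besides Sharpin and Zyg11b they included the ligase Rnf167 (5.96 and 7.92) and the deubiquitinase Usp3 (4.52 and 10.9). Both were kept at equal length. Rbck1, the partner of Sharpin in the linear ubiquitin ligase, was among them too (2.76 and 5.87), and the library labelled knockout-Acsl4 2 marked it as well. The control-only members were Ube3c and Fbxo46. The 28 cytosolic chaperone genes gave 2 of 11, Hsp90aa1 and the chaperonin subunit Cct5 (5.23 and 6.84), while Cct7, of the same chaperonin, was control-only. The 51 proteasome genes gave 0 of 4.

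Mitochondrial and membrane traffic genes were spread thinly. Knockout-only genes were 3 of the 9 respiratory chain genes marked in both knockout lists (Ndufs8, Uqcr10 and Cox7a2), 1 of 11 mitochondrial ribosomal genes (Mrpl37, 7.56 and 6.27) and 2 of 11 import and carrier genes (Slc25a11, 5.96 and 7.92, and Tomm20). Slc25a11, the oxoglutarate carrier, shares its region with Rnf167. Among genes of exocytosis, the SNARE Stx3 was control-only. Coat and ER translocation genes gave Arf2 (4.34 and 10.4) and Copg1, 2 of 11, and none of the 14 Rab genes marked in both knockout lists was knockout-only. Of 34 autophagy genes 1 of 4 was, Wipi2 (3.004 and 6.14). Even a list of 20 housekeeping genes had 3 of 4 in the set, Ppia (6.15 and 6.50), Vps29 (3.71 and 3.73) and Rplp0, all lost at equal length. In all, 20 of the 32 lists had a knockout-only gene and 7 a control-only gene, and 50 and 8 of 2259 listed genes had these patterns. The share over all genes marked in both knockout lists was 15.6%, as given above, and no list was tested against it.

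The control-only genes were few. The highest was Zyx, the focal adhesion protein zyxin (chromosome 6, 42349349 to 42350056), with 14.4 and 3.21 in the libraries labelled control-GFP 1 and 2. Gopc, a Golgi scaffold (7.14 and 4.25), Riox2, a ribosomal oxygenase (6.85 and 3.84), and Taf8, a TFIID subunit (6.65 and 3.62), followed, and only Zyx of these was kept at equal list length. In the list labelled control-GFP 2, whose median score was 2.77, these genes stood at percentiles from 67.1 (Zyx) to 81.8 (Gopc). The region of Cct7 and its neighbour Pradc1 scored 5.39 and 4.06. Others at such regions were Fam135a, the protease Tasp1 (7.64 and 2.77, kept), Ube3c, Mllt10, the CDC42-binding kinase Cdc42bpb, Fbxo46, the cadherin Cdh2, Zfp954, Gm13286, the vesicle GTPase Arf6 (3.32 and 1.804) and Stx3 (3.55 and 1.66). Genes marked by different peaks in the control libraries were Dap3, of the mitochondrial ribosome (8.27 and 2.77, also marked in the library labelled knockout-Acsl4 2), the neighbours Mastl and Yme1l1 (9.17 and 2.21), Crybg3, Hivep2, Dph6 and Spint2. Of these, Dap3, Mastl and Yme1l1 kept the pattern at equal length.

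Distal knockout-only regions were led by short regions of very high score far from genes. The strongest lay on chromosome 10 from 11492076 to 11492227, 152 bp wide and 148631 bp from the start of Epm2a, and scored 66.3 and 61.8 in the libraries labelled knockout-GFP 1 and 2. The second lay on chromosome 13 from 9834306 to 9834491 (39.3 and 51.0), 68985 bp from Zmynd11. Both were also called in the library labelled knockout-Acsl4 1, and both scored above every gene-start region of the set. The third, on chromosome 2 from 181918495 to 181918689 (33.7 and 33.9), lay within 1000 bp of the long noncoding RNA gene Gm40034. Another lay on chromosome 6 from 47778122 to 47778268 (8.52 and 25.97), 35244 bp from Pdia4, and the fifth on chromosome 4 from 3052972 to 3053118 (9.90 and 12.9), 118965 bp from Vmn1r2.

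Some of the next distal regions lay by genes of small or repeated RNAs. A region in the body of the coding gene A530032D15Rik (chromosome 1, 85090739 to 85090988) scored 9.95 and 9.85. A region on chromosome 11 from 62602670 to 62602906 (5.18 and 9.78) lay by the small nucleolar RNA genes Snord49a and Snord49b. A region on chromosome 17 from 39846488 to 39846664 (3.69 and 15.5) lay by the ribosomal RNA pseudogene Rn18s-rs5 and was called in the library labelled knockout-Acsl4 1 as well. All 8 of these distal regions were kept at equal list length. Of the 34, 8 had a noncoding gene within 1000 bp. Whether reads from repeated copies could be placed uniquely was not tested. The 34 spanned 145 to 448 bp with a median of 258, and their distance to the nearest coding start ran from 1103 to 181985 bp with a median of 18480.

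The 9 distal control-only regions held 1 strong member, on chromosome 12 from 96124325 to 96124605, 432099 bp from Flrt2. It scored 14.7 and 6.30 in the libraries labelled control-GFP 1 and 2, was the highest of all 25 control-only regions by mean percentile (89.2), and was kept at equal length. A region in Kdm6b, a histone demethylase gene (7.51 and 2.12), 1307 bp from its start, was kept too, as was one on chromosome 14 from 84390993 to 84391174. A region on chromosome 13 from 23445885 to 23446169 (5.83 and 3.26) lay within 1000 bp of the tRNA genes n-TVcac9 and n-TRacg5. The others lay in Itih5, in Apex2 and Tmem29 on chromosome X, and on chromosomes 16, 15 and 4. The region in Apex2 was the only 1 of the 259 on chromosome X.

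Knockout-only regions were weak members of what both knockout lists shared. Their scores ran from 1.40 to 66.3 with a median of 4.29 in the library labelled knockout-GFP 1, and from 1.56 to 61.8 with a median of 5.98 in that labelled knockout-GFP 2. Their median mean percentile was 49.75, against 63.8 for all regions held by both knockout lists. Both scores were at least 5 in 55 of the 234 regions and at least 10 in 6. The 1491 regions held by both knockout lists were ranked by mean percentile and divided into 4 equal parts. Of the lowest part, 29.5% had no control peak (110 of 373, 95% exact interval 24.9 to 34.4). The share was 18.2% and 11.0% in the middle parts and 4.02% in the highest (15 of 373, 2.27 to 6.55). The share therefore fell at each step, and the outer intervals did not overlap. Over all 1491 it was 15.7%. The library labelled control-GFP 1 held 1247 of the 1491 and that labelled control-GFP 2 held 286. Of 401 regions held by both control lists, 25 had no knockout peak (6.23%, 4.08 to 9.07).

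Some regions stood only just on either side of the rule. Uvssa was in the set with scores of 1.40 and 6.58 in the libraries labelled knockout-GFP 1 and 2, Capza2 with 1.44 and 11.4, and Ctr9 with 1.44 and 8.70. Slc20a1, with 1.44 and 6.10, was out because of a control peak of 1.40, and Ift172, with 3.02 and 8.15, because of one of 1.53. No list holds a value below 1.3, so how many knockout-only regions lay just under the cut in the controls cannot be seen. Among the scores held, 10 knockout-only regions had a knockout score under 2. Of the 1257 regions shared with a control list, 6 had no control score of 2 or more. A further 10 knockout-only regions had a control peak within 500 bp without touching it, and 0 control-only regions had a knockout peak so near. The 971 regions shared by both knockout lists and control-GFP 1 alone had median scores of 4.90 and 9.31 in the libraries labelled knockout-GFP 1 and 2.

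Lists of the Acsl4 virus, which had no part in the choice, held few of these regions. Of the 234 knockout-only regions, 14 were called in either library labelled knockout-Acsl4 (5.98%, 95% exact interval 3.31 to 9.84), 11 in the first and 3 in the second. At gene starts the first of these lists held 6 of 200 (3.0%). Of the 25 control-only regions 0 were, which allows a share of up to 12.0%. Regions shared by control-GFP 1 and a single knockout list recurred at like rates. The rate was 5.63% (9 of 160, 2.60 to 10.4) for control-GFP 1 with knockout-GFP 1 and 5.15% (64 of 1242, 3.99 to 6.53) for control-GFP 1 with knockout-GFP 2. Both intervals include the knockout-only share, and no test of the difference was made. The mixed pairs with control-GFP 2 held few regions. With knockout-GFP 1, 3 of 8 recurred, and with knockout-GFP 2, 2 of 21. Regions in both knockout lists and control-GFP 1 recurred at 12.8% (124 of 971, 10.73 to 15.03), above the interval of the knockout-only set. Their scores were higher as well (medians given above), and the part of score in this difference was not tested. The library labelled knockout-Acsl4 1 had 525 peaks, and in that labelled knockout-Acsl4 2 4.58% of peaks lay at gene starts, which limits any recurrence. The intervals cover counting error only.

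**Figure D3:**
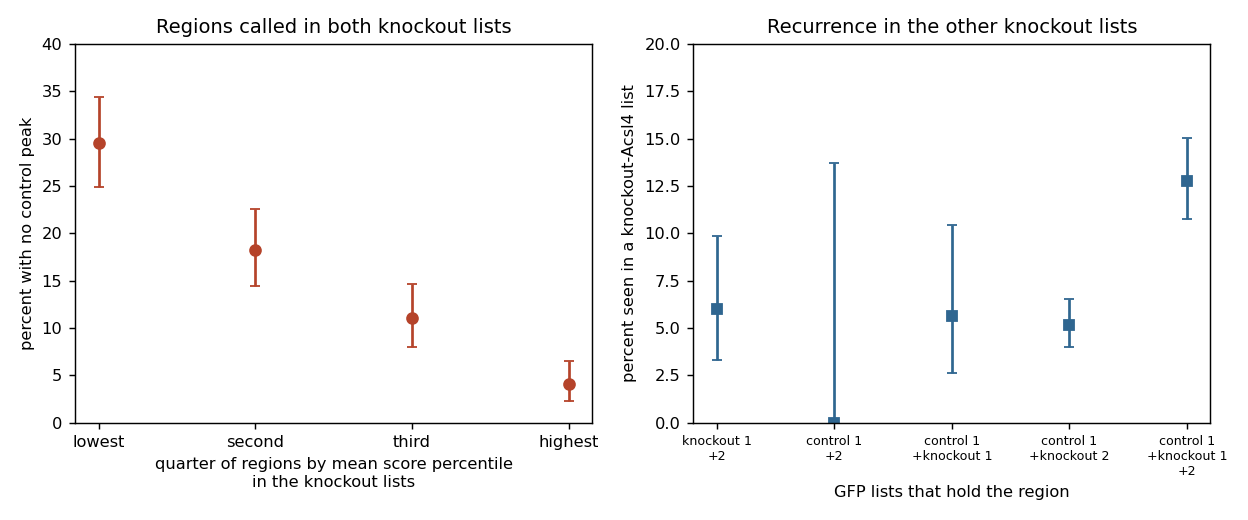
Left, percent of the regions in both knockout lists that had no control peak, in 4 equal parts by mean score percentile. Right, percent of regions called in a knockout-Acsl4 list, by the GFP lists that hold them. Bars are 95% exact intervals, and the left share falls from 29.5% to 4.02% while the knockout-only share on the right (5.98%) lies beside those of the mixed pairs (5.63% and 5.15%).

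At gene starts, knockout-only regions sat closer to the start in the median than shared ones, as did 3 other sets of regions held by fewer lists. Distance was read only for genes with a RefSeq promoter window. The 200 knockout-only starts here are therefore not the same set as the 200 knockout-only gene-start regions. Relative to the start, the region's centre lay at -68 bp in the median (25th to 75th percentile, -127.2 to -12 bp) over 200 starts, against -114.5 bp (-199.8 to -26 bp) for 1034 starts of regions in both knockout lists and control-GFP 1. Within 250 bp of the start lay 93.0% and 82.3% of them. For regions found only in the list labelled knockout-GFP 2 it was 87.6% of 954, with a median of -46 bp. The 15 control-only starts had a median of -4 bp, with 93.3% within 250 bp. Regions found only in the list labelled control-GFP 1 had a median of -12 bp, with 78.4% of 908 within 250 bp.

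**Figure D4:**
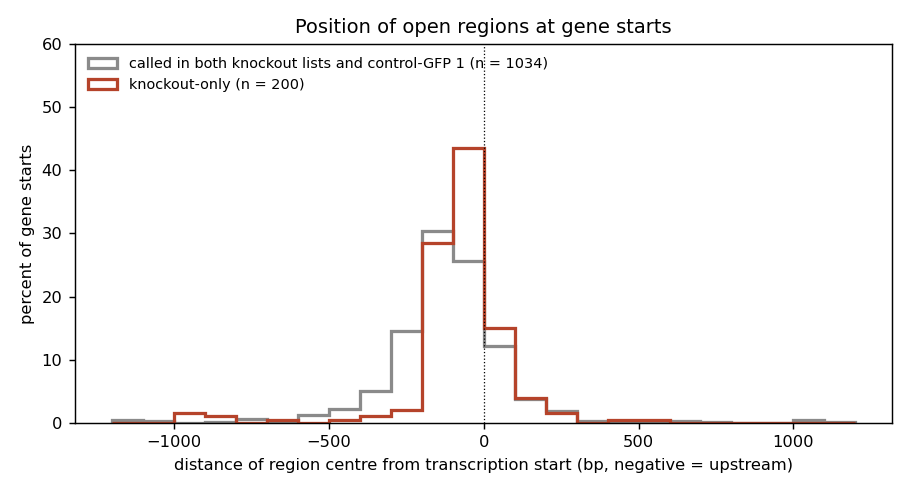
Distance of the region centre from the transcription start in bp (negative is upstream), in bins of 100 bp as percent of starts, for 200 knockout-only starts and 1034 starts open in both knockout lists and control-GFP 1. The knockout-only curve peaks in the bin next to the start, and the shared curve lies farther upstream.

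The promoter windows of the set resembled those of shared regions in base composition. The median GC content was 64.2% in 200 knockout-only windows, 64.3% in 1034 shared windows and 56.3% in 21262 windows of all coding genes, with 26, 25 and 13 CpG. Motifs were searched as exact letters on both strands, and none contains another. The SP1 motif (GGGCGG) was in 75.5%, 82.1% and 46.2% of these windows, and the NFY motif (CCAAT) in 45.5%, 58.1% and 38.2%. The ETS motif (CCGGAAG) was in 26.5%, 17.99% and 11.6%, and the YY1 motif (AAGATGGC) in 8.5%, 5.03% and 3.05%. In windows of the list labelled knockout-GFP 2 alone these shares were 75.2%, 44.0%, 22.9% and 7.13%, close to the knockout-only set. The NRF1 motif was in 7.0%, 2.90% and 1.33%. Its 14 knockout-only windows included those of the nucleoporins Nup107 and Nup50, the nuclear transport GTPase Ran, Cct5, Rtn3 and Ubn2, named after their motifs were seen. The NRF1 share was 1.89% in windows of the list labelled knockout-GFP 2 alone and 2.42% in those of control-GFP 1 alone.

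The FOXO motif (GTAAACA), of interest because mTORC2 acts on FOXO factors, was in 10 of the 200 knockout-only windows (5.0%), in 16 of the 1034 shared ones (1.55%) and in 3.01% of all coding windows. The 10 included Retreg2, Tfb2m, Dhx8, Mcm7, Adipor2, Vkorc1, Txnl4b and Cox7a2, also named after their motifs were seen. The share was 1.78% in windows of the list labelled knockout-GFP 2 alone and 2.20% in those of control-GFP 1 alone. No test was made of these shares, and neighbouring genes can share a window. CRE (TGACGTCA; 3.0%, 3.68% and 2.23%), E-box (CACGTG; 12.0%, 11.5% and 7.84%), AP-1 (TGANTCA; 4.0%, 3.29% and 6.99%) and TATA box motifs (TATAAA; 4.0%, 3.97% and 12.6%) lay close to the shared windows. Of the 15 control-only windows 12 held the SP1 motif, 5 NFY, 2 ETS and 0 FOXO, NRF1 or CRE.

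With the library labelled control-GFP 2 left out, control-only regions outnumbered knockout-only ones. A group left with a single list passes the rule more easily, so this order cannot be set against that of the full split. The same holds for the other counts without a library. Both knockout lists then shared 1491 regions, of which control-GFP 1 lacked 244 (16.4%, 95% exact interval 14.5 to 18.3), while 1674 regions were in control-GFP 1 alone. Among these 3 lists, the pair of control-GFP 1 and knockout-GFP 1 shared 1413 regions, of which knockout-GFP 2 lacked 166 (11.7%, 10.1 to 13.5). The pair of control-GFP 1 and knockout-GFP 2 shared 2582, of which knockout-GFP 1 lacked 1335 (51.7%). Missing regions were thus most frequent from the shortest of the 3 lists. With 2206 peaks in each, the shares were 24.96% (281 of 1126, 22.5 to 27.6) missing from control-GFP 1, 19.7% (207 of 1052, 17.3 to 22.2) missing from knockout-GFP 2 and 37.2% (501 of 1346) missing from knockout-GFP 1. Control-GFP 1 as the odd list out again lay between the others. Without the library labelled control-GFP 1 the counts were 1200 knockout-only and 1208 control-only regions. Without that labelled knockout-GFP 1 they were 1610 and 31, and without that labelled knockout-GFP 2 774 and 119.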

How the data were processed

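Mouse islet ATAC-seq was analysed from the peak list of each library, deposited by the authors without header. The deposited peak values were taken for −log10 q-values, since no list holds a value below 1.3, which corresponds to q = 0.05. The submitters' processing notes list BWA 0.7.10 and MACS2 2.1.1 and give no settings. Those notes name human builds, but coordinates were treated as mouse GRCm38 because peaks fell on its gene starts, and are 1-based. Read depth was unknown, so the number of peaks stands in its place. Per the labels' protocols, 50 islets were lysed per sample, and 12 PCR cycles and reads of 50 bp were used.

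Starts of 17491 of 21883 coding genes came from RefSeq promoter windows. For the other 4392 either gene end counted as a start, so their regions can lie at the far end. No genome sequence was used here. Shares have exact Clopper-Pearson intervals, and a count of 0 allows up to 3 counts. Group means used exact permutation tests. Named genes are Rictor, Acsl4, Foxo1, genes at control-only regions, the 15 highest knockout-only gene-start regions (and those kept at equal length), up to 4 members per list and 8 distal regions per direction; other genes were named after their values were seen. The members and lists were chosen with earlier results of these data known. The single marked ductal marker is not reported here by name. Alternatives changed list length, score, overlap, joining distance, chromosomes, window and libraries. The counting was tested on simulated lists. Python 3.11.15, pandas 2.3.3 and scipy 1.17.1 were used.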

Additional observations from a re-analysis of the deposited data

How the results depend on the processing

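Knockout-only regions outnumbered control-only ones in every setting except 3, each of which left out a control library. Most of the other settings kept control-GFP 2, whose pair had the smaller count in every split of the lists. Their order is therefore no separate support. The replicate block and the wider gene-start window leave the merged regions as they are. The knockout-only count was 142 with the better 50% of each list and 107 with scores of 5 or more, against 234, and the control-only count was 15 with scores of 3 or more and 3 with scores of 5 or more, against 25. At equal list length control-only gene-start regions numbered 27 (against 16) and control-only genes 37 (against 23). Over the 4 counts that leave out 1 library, knockout-only regions ran from 244 to 1610 and control-only from 31 to 1674. At gene starts they ran from 208 to 1203 and 19 to 1042, at distal regions from 36 to 407 and 12 to 1123, and by gene from 239 to 1257 and 30 to 999. In settings chosen after seeing the data, leaving out both replicates numbered 1, which hold the Acsl4 peaks, gave 3857 and 1225, and 3 lists of equal length without control-GFP replicate 2 gave 281 and 645. A group of 1 list passes the rule more easily, so these counts rise by construction.

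Pairing by replicate number gave the same 234 and 25, since a replicate block adds nothing to a presence pattern. Deviations of same-numbered libraries from their group means correlated at -0.0967 across regions, and the labels give no shared source for a number. Regions in the knockout list and not in the control list of its number were 793 (against 3029) for the first pair and 3857 (against 1225) for the second. The share of knockout-only regions recurring in a knockout-Acsl4 list was 5.98%, 8.13% at equal length and 6.22% with an overlap of at least 50%. All counts depend on list length, and read depth is unknown.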
